A study of Mus musculus with 4 samples.

Results

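The 7 genes Pth1r, Thbd, Plat, Srgn, Sparc, Spp1 and Stra6, which encode secreted and cell-surface proteins made by parietal endoderm, were described in mouse embryonic stem (ES) cells with and without a knockdown of the long noncoding RNA T-UCstem1. The genes were picked by symbol from a table of 27542 genes and transcribed loci, and for each symbol the row of highest mean level was kept. All 7 were found, each in 1 row and each tested by the authors. The choice was made with the knockdown and control levels in view, so the levels below are a description and carry no test. The cells were TBV2, a mouse ES cell line, kept in serum and LIF; the series text also names feeder cells and high density for both conditions. The control was 1 library of cells labelled N.T., written NT below. The knockdown (KD) was 3 libraries, each from a separate clone labelled T-UCstem1 KD. The authors gave 1 FPKM per gene and condition, where FPKM is a fragment count divided by transcript length in kilobases and by the mapped fragments of the library. Values of single clones were not analysed here, so no error or n stands beside a level, and the level of T-UCstem1 itself was not analysed here.

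Parietal endoderm is an extraembryonic cell layer that descends from primitive endoderm and lines the outer wall of the yolk sac. Its cells secrete Reichert's membrane, a thick basement membrane of type IV collagen, laminin and nidogen, and they also secrete SPARC and tissue plasminogen activator. Parathyroid hormone-related protein, acting through the receptor that Pth1r encodes, is known to drive the step from primitive to parietal endoderm in embryoid bodies and F9 teratocarcinoma cells. Retinoic acid with cyclic AMP does the same in F9 cells. Several of the 7 genes are also active elsewhere: Srgn in blood cells, Spp1 in macrophages, bone and fibroblasts, and Thbd and Plat in endothelium. In bulk RNA a higher share of cells of a type and more RNA per cell cannot be told apart.

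Promoter sequences were in the RefSeq table (GRCm38.p6) for 5 of the 7 genes, with 12 windows of 300 bases, each running from 250 bases before a transcription start to 50 after it. Thbd and Plat have no entry there. The windows are shown because the 7 genes were higher together in the KD, and motifs of factors of this lineage were searched in them on both strands. Printed are 4 stretches upstream of a start that hold a GATA or TATAAA match, in lower case with the matches in capitals, each cut where an annotated exon of the same gene begins. The first Spp1 stretch lies at chr5:104434861-104435110 (plus strand), the second at chr5:104435942-104436191 (plus strand), that of Srgn at chr10:62527452-62527695 (minus strand) and that of Stra6 at chr9:58133825-58134016 (plus strand).
Spp1, first start: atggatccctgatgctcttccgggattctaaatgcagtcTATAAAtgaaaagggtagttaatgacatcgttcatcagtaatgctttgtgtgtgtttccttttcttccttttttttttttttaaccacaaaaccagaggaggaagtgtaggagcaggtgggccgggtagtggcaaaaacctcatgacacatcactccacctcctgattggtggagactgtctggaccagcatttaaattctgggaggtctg
Spp1, second start: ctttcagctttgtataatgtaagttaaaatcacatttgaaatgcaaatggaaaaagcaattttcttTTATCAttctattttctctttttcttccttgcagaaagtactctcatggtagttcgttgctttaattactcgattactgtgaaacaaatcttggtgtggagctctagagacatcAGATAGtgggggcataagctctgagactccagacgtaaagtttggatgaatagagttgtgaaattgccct
Srgn, outer start: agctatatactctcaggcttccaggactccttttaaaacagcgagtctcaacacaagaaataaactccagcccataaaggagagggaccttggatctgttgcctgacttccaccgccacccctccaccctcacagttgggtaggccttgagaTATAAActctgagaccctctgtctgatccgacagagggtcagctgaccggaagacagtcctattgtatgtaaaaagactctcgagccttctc
Stra6, inner start: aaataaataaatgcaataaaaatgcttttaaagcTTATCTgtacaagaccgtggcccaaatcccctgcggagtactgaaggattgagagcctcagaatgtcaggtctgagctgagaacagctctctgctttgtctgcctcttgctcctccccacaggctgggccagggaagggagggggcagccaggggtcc
The GATA motif was searched as AGATAA, as AGATAG, as TGATAA and as TGATAG. It occurred in 2 of the 12 windows, 1 of Spp1 and 1 of Stra6, against 29.8% of 32851 windows of all genes. In the second Spp1 window the matches began 184 and 70 bases before the start, and in the Stra6 window the match began 216 bases before it. The SOX motif, searched as ATTGTT and as ATTGTG, occurred in none of the 12 windows, against 20.2% of all. AGGTCA, the core letters of a retinoic acid receptor half-site, also occurred in none of the 12, against 16.3% of all. TATAAA occurred in the first Spp1 window and the outer Srgn window, 211 and 98 bases before the start, against 13.6% of all windows. GGGCGG, the core of the SP1 motif, occurred in 5 of the 12 windows, all of Pth1r or Stra6, against 35.7% of all. Some windows of a gene lie close together or overlap and are not independent. A match describes letters in a window, and binding was not measured.

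All 7 genes stood higher in the KD than in the control, with KD to control ratios between 3.88 and 9.87 and a median ratio of 7.89. On the scale log2((KD FPKM + 1)/(control FPKM + 1)), called the log2 fold below, their median was 1.98. Over all 13462 rows at 1 FPKM or more in either condition the median log2 fold was 0.00998 and the quartiles were -0.19 and 0.22. Of the 7 genes, 5 carried the mark of significance in the authors' deposited table (a Cuffdiff q under 0.05). Of all 15477 tested rows, 1.15% carried the mark, 0.963% as higher in the KD and 0.187% as lower. Since the 7 were chosen on this contrast, their count is given without a reading. The added 1 FPKM lowers the log2 fold of genes with low levels, so ratios are given beside it.

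**Figure D1:**
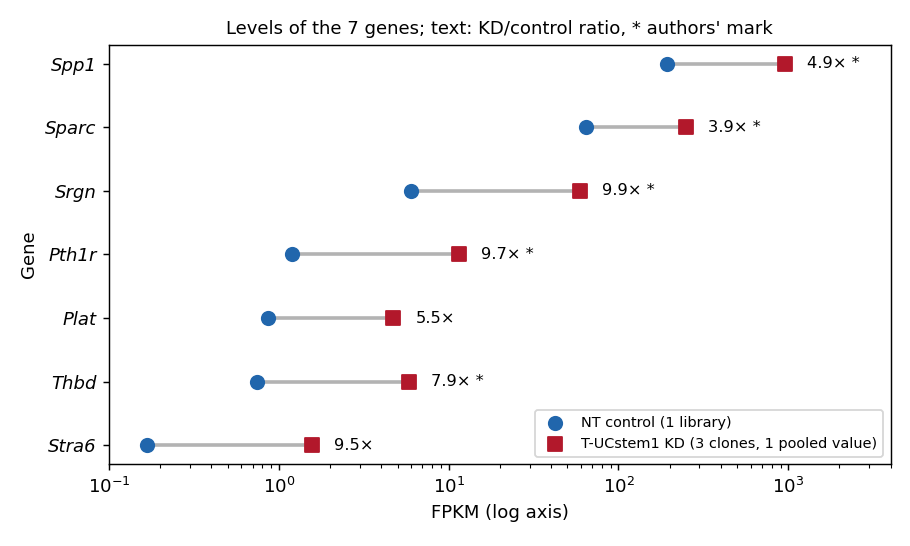
FPKM of the 7 genes on a log axis, with circles for the NT control (1 library) and squares for the KD (1 value pooled over 3 clones), the ratio beside each pair and an asterisk where the authors marked the gene. Every square lies to the right of its circle, from Stra6 at 0.166 and 1.57 FPKM to Spp1 at 194 and 956 FPKM.

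Spp1, Sparc and Srgn, which encode secreted proteins, were the most abundant of the set in both conditions. Spp1 encodes osteopontin, a secreted phosphoprotein of matrix that binds integrins and CD44. KD and control cells had 956 and 194 FPKM, a ratio of 4.92 and a log2 fold of 2.29. It ranked 92 of 27542 rows by level in the KD and 374 in the control, and made up 74.2% of the summed FPKM of the 7 genes in the KD and 72.7% in the control. The Spp1 row spans chr5:104863202-104870459 in mm9, the build of the deposited table.

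Sparc encodes osteonectin, a collagen-binding glycoprotein that is a main product of parietal endoderm. KD and control cells had 248.9 and 64.2 FPKM, the smallest ratio of the 7 at 3.88, with a log2 fold of 1.94. The row spans chr11:55207661-55233698 (mm9). Both Sparc and Spp1 thus had high levels in the control library, and the part of feeder cells in them was not tested. Among the 7 they had the largest absolute gains, 184.7 and 761.6 FPKM, with ratios below the median of the set.

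Srgn encodes serglycin, the core protein of a proteoglycan stored in secretory granules. It had the largest ratio of the 7 at 9.87 and the largest log2 fold at 3.10, with 59.1 FPKM in KD cells and 5.99 FPKM in control cells. By log2 fold it ranked 22 of 13462 rows. The row spans chr10:61956853-61990360 (mm9).

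Plat encodes tissue plasminogen activator, a secreted protease that turns plasminogen into plasmin. KD and control cells had 4.72 and 0.865 FPKM, a ratio of 5.45. The authors' deposited table gives it q = 0.0505, just past their threshold, so it was not marked. The row spans chr8:23868216-23893320 (mm9).

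The surface genes were low in the control. Pth1r encodes a G protein-coupled receptor for parathyroid hormone and parathyroid hormone-related protein. Levels were 11.5 FPKM in KD cells and 1.19 FPKM in control cells, with a ratio of 9.70 and a log2 fold of 2.52 (chr9:110624589-110649649, mm9). Thbd encodes thrombomodulin, a membrane protein that binds thrombin and turns it towards activation of protein C. It was at 5.85 FPKM against 0.741 FPKM, with a ratio of 7.89 and a log2 fold of 1.98 (chr2:148230207-148233924, mm9).

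Stra6 encodes a membrane receptor for retinol-binding protein and was first named as a gene stimulated by retinoic acid. It was the least abundant of the 7 in both conditions, with 1.57 FPKM in KD cells and 0.166 FPKM in control cells (chr9:57976895-58003944, mm9). Its ratio of 9.46 was close to those of Srgn and Pth1r, while its log2 fold of 1.14 was the lowest of the set. With a pseudocount of 0.01 FPKM in place of 1 the Stra6 log2 fold was 3.17. The authors' deposited table gives it q = 0.0636, without a mark.

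The spread of levels was wide, with the highest gene 607 times the lowest in the KD and 1169 times in the control. In the control 4 of the 7 reached 1 FPKM and in the KD all 7 did. Read numbers were not used here, but whole fragments leave steps among low values. The lowest values of FPKM times transcript length in genes with 1 annotated transcript clustered at 0.0343 in the control. If that is the worth of 1 fragment, the control levels of Stra6, Plat, Thbd and Pth1r would rest on about 15, 64, 80 and 80 fragments and that of Srgn on about 301. These are estimates of counting depth only, and a transcript length other than the one assumed would change them.

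**Figure D2:**
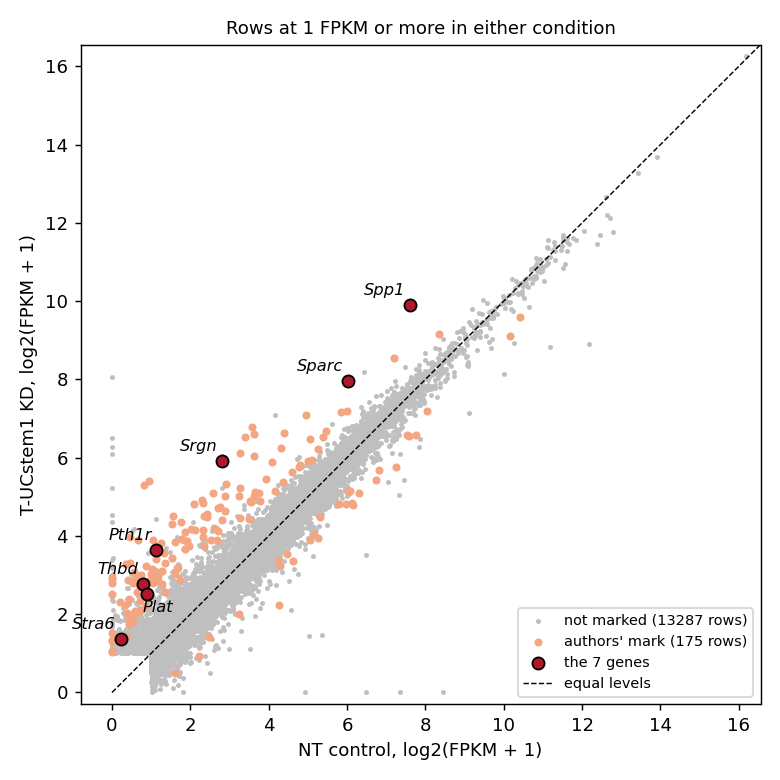
Level in the NT control (x axis) against the KD (y axis), both as log2(FPKM + 1), for 13462 rows at 1 FPKM or more in either condition, with marked rows in orange, the 7 genes in red and a dashed line of equal levels. All 7 genes lie above the line, and Spp1 and Sparc sit apart from other rows of like abundance.

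The rows most like each gene were found by the Euclidean distance between pairs of log2(FPKM + 1) values, which covers only the 2 conditions. The row nearest to Srgn was Col4a2, a type IV collagen chain, at 63.0 against 6.06 FPKM and a distance of 0.0916. The next was S100a4, a calcium-binding protein, at 0.518. Near to Pth1r was Tinagl1, a basement membrane glycoprotein, at a distance of 0.200. Nearest to Thbd were Foxq1, a forkhead transcription factor (0.0253), and Cd200, a membrane glycoprotein (0.0631). Nearest to Plat were Inhba, the activin A subunit (0.0443), and Myl9, a myosin light chain (0.0518). Nearest to Stra6 were Masp1, a protease of the lectin complement pathway (0.0193), and Il1rn, the interleukin-1 receptor antagonist (0.0385). Sparc and Spp1 had no close row among those searched. For Sparc the nearest were Lamc1 (0.7496) and Cd63 (0.751), with log2 folds of 0.88 and 0.93. For Spp1 they were Anp32b (1.05) and Ndufa4 (1.20), with log2 folds of 0.81 and 0.60.

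The 7 genes lie on 6 chromosomes, and only Pth1r and Stra6 share one. Median log2 folds of those chromosomes lay between -0.19 (chromosome 10, of Srgn) and 0.059 (chromosome 2, of Thbd). Rows at 1 FPKM or more within 250 kb of a gene numbered 47 in all, and none for Thbd. Around Pth1r 12 neighbours had log2 folds between -0.67 and 0.38, around Plat 8 had between -0.53 and 0.025, and around Spp1 4 had between -0.028 and 0.42. No neighbour of these 3 genes was marked. Around Stra6 8 neighbours ranged up to 1.09 for Sema7a, which was not marked. Among 11 neighbours of Srgn 1 was marked, Hkdc1, a hexokinase family gene, at 3.69 against 0.267 FPKM. Among 4 neighbours of Sparc the predicted gene Gm12238 was at 89.8 FPKM in the KD and listed at 0 in the control, and was not marked. The Gm12238 row has the same span as G3bp1, which stood at 156 against 158 FPKM. Sema7a, Hkdc1 and Gm12238 were singled out after their values were seen.

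**Figure D3:**
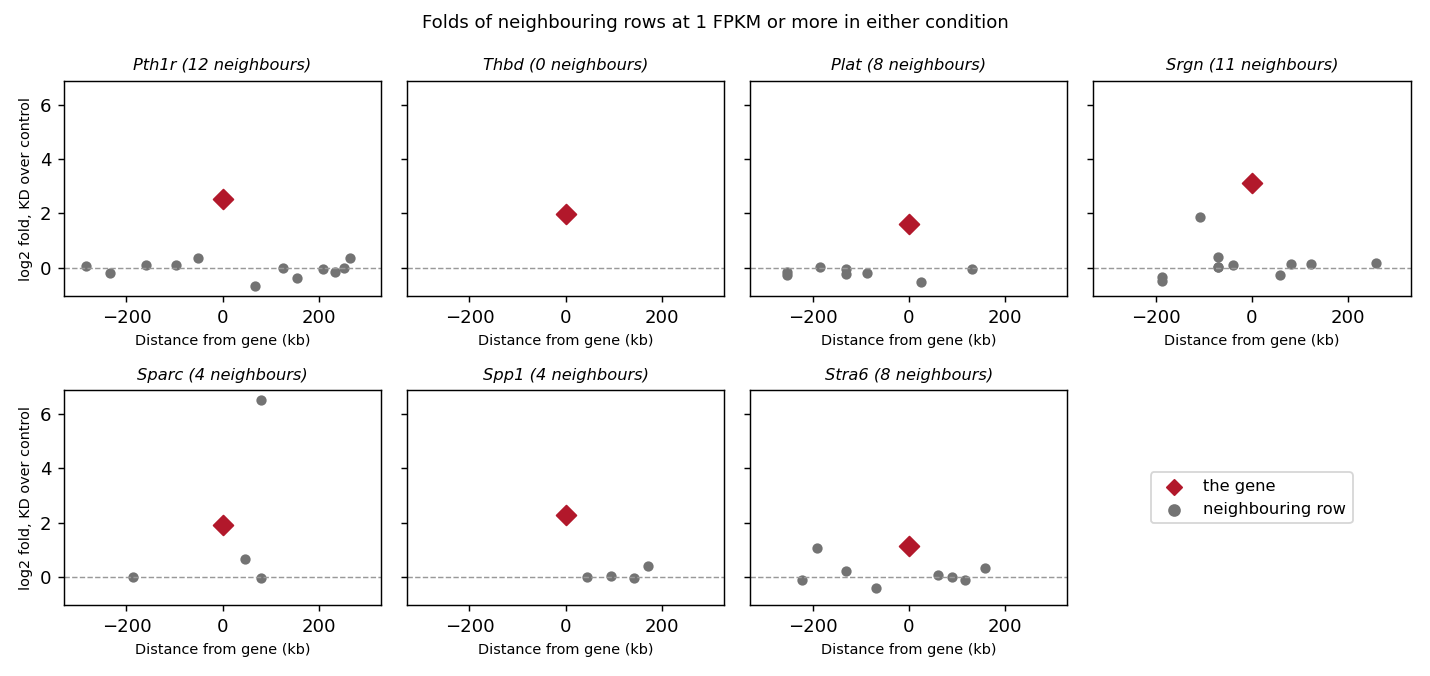
Log2 fold of each gene (red diamond) and of its neighbouring rows (grey) against the distance between their midpoints in kb. Apart from Hkdc1 beside Srgn, Sema7a beside Stra6 and Gm12238 beside Sparc, neighbours lie between -0.67 and 0.66.

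The partners of each protein were followed in 7 pathway lists. Here and below, a list member that rose is one the authors marked as higher in the KD, and one that fell was marked as lower. An unmarked member can still have a log2 fold above 0. Of all 15477 tested rows, 0.963% were marked as higher and 0.187% as lower, so a short list without a mark is near that share. For the parathyroid hormone receptor, none of 17 tested members of 22 was marked and the median log2 fold of 16 members at 1 FPKM or more was -0.0076. The ligand Pthlh was at 0.0661 FPKM in KD cells and listed at 0 in control cells, and Pth was listed at 0 in both. The G protein subunit Gnas, which couples the receptor to cyclic AMP, was at 114 against 104 FPKM, and Prkar1a, a regulatory subunit of protein kinase A, at 64.2 against 71.8 FPKM. The higher Pth1r level thus stood beside ligand transcripts at or near 0 and signalling genes whose median lay near that of all rows.

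In the coagulation list, which belongs with thrombomodulin, 1 of 9 tested members rose and 8 were not marked (median log2 fold 0.27 over 8 members). F3, tissue factor, the membrane protein that starts coagulation, rose from 4.01 to 27.7 FPKM. Procr, the receptor that presents protein C to the thrombin and thrombomodulin complex, was at 2.98 against 1.37 FPKM and not marked. The thrombin receptor F2r was at 45.5 against 44.4 FPKM, and Tfpi, the inhibitor of the tissue factor pathway, at 52.2 against 38.3 FPKM, neither marked. Of the proteins thrombomodulin binds or activates, F2 (prothrombin) was at 0.290 against 0.0498 FPKM. Proc (protein C) was lower in the KD, at 0.361 against 1.07 FPKM, and not marked.

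Among genes of plasminogen activation, the pathway of Plat, 4 of 13 tested members rose, none fell and 9 were not marked (median log2 fold 0.59 over 13 members). Serpine2, the protease inhibitor nexin 1, rose from 6.43 to 23.8 FPKM and Serpinb2, plasminogen activator inhibitor 2, from 3.02 to 17.2 FPKM. Anxa2, an annexin that holds plasminogen and tissue plasminogen activator at the cell surface, rose from 18.9 to 75.1 FPKM. Its partner S100a10 was at 85.8 against 60.3 FPKM and Serpinb6a at 41.3 against 27.1 FPKM, neither marked. Plau, the urokinase activator, was at 2.71 against 0.820 FPKM, and its receptor Plaur at 26.7 against 9.30 FPKM, neither marked; the q of Plaur in the authors' deposited table is 0.0580. Plg, plasminogen itself, was at 0.0102 FPKM or less.

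Among other proteoglycan core proteins and enzymes that build their chains, the group of Srgn, 1 of 23 tested members rose and 22 were not marked (median log2 fold 0.22 over 21 members). The member that rose was Bgn, biglycan, a small matrix proteoglycan, from 2.05 to 13.3 FPKM. The basement membrane proteoglycan genes Col18a1 and Hspg2 were the most abundant, at 71.3 against 91.3 FPKM and 60.3 against 44.7 FPKM, and were not marked.

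Relatives of Sparc and Spp1 were less abundant than these genes in both conditions. None of 5 tested members of the SPARC and osteopontin families was marked, with a median log2 fold of 0.32 over 4 members, or 0.027 over all members with a row. Fstl1 was at 25.2 against 27.1 FPKM and Spock2 at 2.57 against 2.25 FPKM. The other tested members stood higher in the KD without a mark. Smoc1 was at 1.53 against 0.775 FPKM, Spock1 at 1.20 against 0.261 FPKM and Smoc2 at 0.775 against 0.174 FPKM. Sparcl1, the closest relative of Sparc, was at 0.0723 FPKM in KD cells and listed at 0 in control cells. The osteopontin relatives Ibsp, Dmp1, Dspp and Mepe, which lie near Spp1 on chromosome 5, were at 0.0257 FPKM or less in both conditions.

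Of the receptors of osteopontin, 1 of 8 tested rose and 7 were not marked (median log2 fold 0.29 over 7 members). Cd44 rose from 1.41 to 7.59 FPKM. The integrin subunits that bind its RGD sequence were not marked. Itgb1 was at 55.4 against 35.5 FPKM, Itga5 at 53.8 against 44.0 FPKM, Itgav at 8.06 against 6.38 FPKM, Itgb5 at 8.29 against 5.71 FPKM and Itgb3 at 1.82 against 1.64 FPKM.

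Of the retinoid genes that belong with Stra6, 1 of 16 tested rose and 15 were not marked (median log2 fold 0.48 over 15 members, or 0.26 over all members with a row). Stra8, a retinoic acid target of germ cells, rose from 32.3 to 88.9 FPKM. Cyp26a1, the enzyme that degrades retinoic acid and a target of its receptors, was at 3.89 against 0.164 FPKM and has q = 0.2504 in the authors' deposited table. Rbp4, whose product is the STRA6 ligand, was at 1.69 against 0.929 FPKM. Lrat, which stores retinol as esters and acts with STRA6 in uptake, was at 0.0852 against 0.0590 FPKM. The receptor genes Rarg and Rarb were at 82.1 against 58.8 FPKM and 0.662 against 0.426 FPKM, and Fabp5, a fatty acid and retinoic acid carrier, at 31.7 against 21.2 FPKM. None of these but Stra8 was marked.

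**Figure D4:**
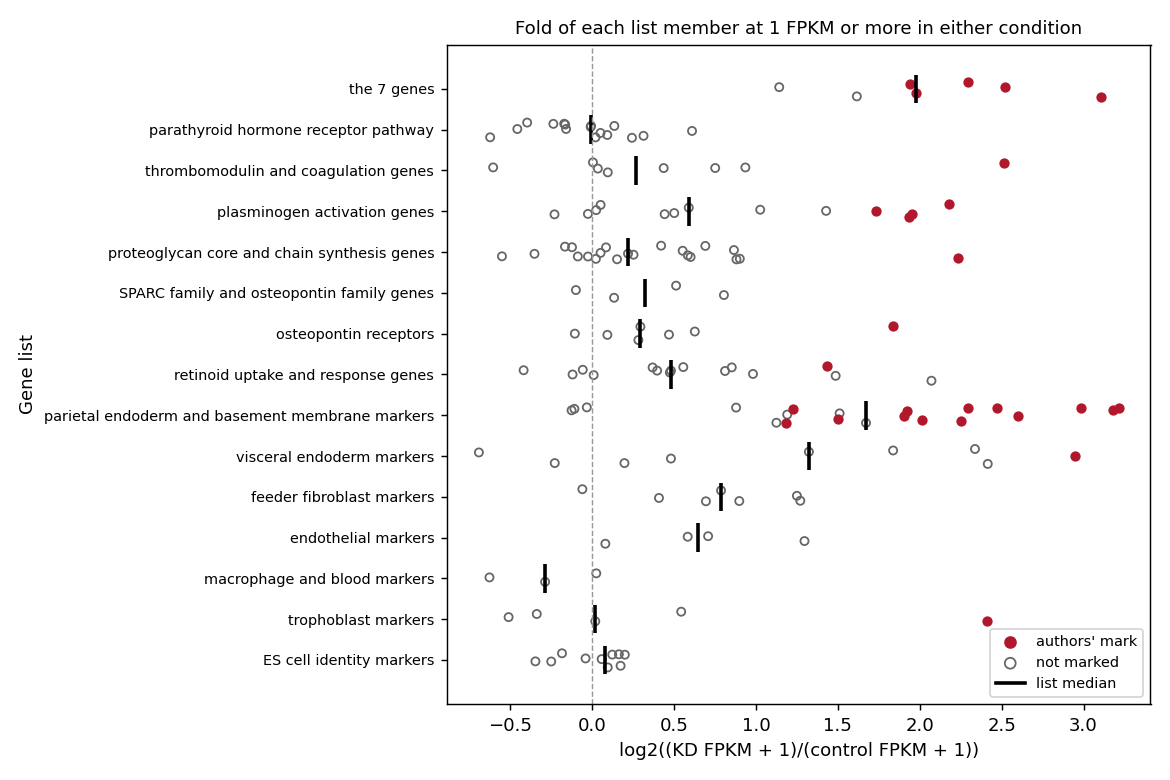
Log2 fold (x axis) of the 7 genes and of the members of 14 gene lists (y axis) at 1 FPKM or more in either condition, filled where the authors marked the gene, with a bar at each median. The 7 genes and the parietal endoderm markers have medians of 1.98 and 1.67. The visceral endoderm, fibroblast and endothelial markers have medians of 1.32, 0.79 and 0.65, and the 7 pathway lists lie between -0.0076 and 0.59.

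The label was checked against cell type markers. Beside the counts of marks in these lists stand the shares over all tested rows, 0.963% marked as higher in the KD and 0.187% as lower. A short marker list without a mark is near those shares. The cells were ES cells by their markers in both conditions: Pou5f1, Sox2 and Nanog stood at 1078, 216 and 489 FPKM in the KD and at 1036, 257 and 434 FPKM in the control, and none of 10 ES cell markers was marked. Of 21 tested markers of parietal endoderm and its basement membrane other than the 7 genes, 13 rose, none fell and 8 were not marked, with a median log2 fold of 1.67, or 0.92 with a pseudocount of 5 FPKM. These include Col4a1, Col4a2, Lama1 and Lamb1 of Reichert's membrane, the endocytic adaptor Dab2, the collagen chaperone Serpinh1, Vim, Bmper, Pdgfra and the transcription factors Gata4, Gata6, Sox7 and Sox17. Col4a1 was at 109 against 10.9 FPKM, Lamb1 at 96.5 against 11.3 FPKM and Dab2 at 29.1 against 3.96 FPKM. The most abundant of the list, the laminin chain gene Lamc1, was at 172 against 93.1 FPKM and not marked, followed by Serpinh1 at 145 against 63.4 FPKM and Vim at 102 against 42.8 FPKM. Other markers of the same tissue stood apart from them. The nidogens Nid1 and Nid2 were at 41.5 against 44.8 FPKM and 64.6 against 66.1 FPKM, Snai1 at 5.35 against 5.92 FPKM, and Tfpi2 at 0.158 FPKM in the KD and listed at 0 in the control. Parts of this marker list were already known to be higher in these data and are no independent evidence for the label. The list was also not restricted to genes made only by parietal endoderm. Visceral endoderm markers had a median log2 fold of 1.32, and which lineage the levels belong to was not tested.

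Visceral endoderm markers, of the sister lineage, had 1 mark among 12 tested members (Cubn, an endocytic receptor, from 1.93 to 21.6 FPKM) and a median log2 fold of 1.32 over the 9 members at 1 FPKM or more in either condition. Only 6 of these reached 1 FPKM in the control, and the median was 0.48 over all members with a row and 0.72 with a pseudocount of 5 FPKM. Afp and Ttr, secreted products of that lineage, were at 0.0522 and 0.532 FPKM in KD cells and listed at 0 in control cells. Amn, the partner of cubilin, was at 7.09 against 0.601 FPKM and Fxyd3 at 3.85 against 0.356 FPKM, neither marked. Apoe, the most abundant member, was at 337 against 545 FPKM and not marked. Spink3, which encodes a secreted protease inhibitor, was at 36.6 against 6.05 FPKM and Lrp2, the receptor megalin, at 27.5 against 10.4 FPKM, neither marked.

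Markers of other cells that express some of the 7 genes were listed too. The 15 fibroblast markers, which would include feeder cells, summed to 27.3 FPKM against 13.5 FPKM, with none of 9 tested marked and a median log2 fold of 0.79, or 0.31 with a pseudocount of 5 FPKM. Thy1 was at 7.06 against 5.08 FPKM, Pdgfrb at 2.57 against 2.73 FPKM and Col1a2 at 4.03 against 1.12 FPKM, while Lum was listed at 0 in both. The Cuffdiff q of Col1a2 in the authors' deposited table is 0.0505, the same as that of Plat. Of the 7 fibroblast markers at 1 FPKM or more in either condition, 6 had log2 folds above 0 and 1 below. The part of fibroblast RNA in the levels of Spp1 and Sparc was not tested. The 12 endothelial markers summed to 54.3 FPKM against 41.4 FPKM, most of it Pecam1 at 35.9 against 33.9 FPKM, a gene that mouse ES cells also express. Eng was at 11.7 against 4.18 FPKM and Tek at 2.37 against 1.06 FPKM, while Cdh5 was at 0.944 against 0.168 FPKM and Emcn listed at 0 in both. None of 6 tested endothelial markers was marked, and their part in the levels of Thbd and Plat was not tested.

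Of 13 macrophage and blood markers with a row, none of 4 tested was marked. The row that holds Cd68 joins it with Eif4a1, a translation factor gene that every cell uses, and other neighbours, so that no level of Cd68 can be read from it. That row and the one for Hbb-b1 carry several symbols, and the other markers of the list summed to 54.9 FPKM against 83.1 FPKM. Most of this was Laptm5 at 50.6 against 78.7 FPKM, followed by Itgam at 2.44 against 3.20 FPKM. The defining leukocyte genes Ptprc, Csf1r and Emr1 were at 0.0820 FPKM or less, and Tyrobp was listed at 0 in both. Spi1 was at 0.761 against 0.807 FPKM, Cd14 at 0.444 against 0.224 FPKM and Fcer1g at 0.468 against 0.0758 FPKM. The part of macrophages and blood cells in the levels of Srgn and Spp1 was not tested. Of 5 tested trophoblast markers 1 rose, Prl2c2, a proliferin gene, from 11.4 to 64.7 FPKM, in a row that joins it with its near-identical copies Prl2c3 and Prl2c4, so its share of reads is uncertain. The list summed to 87.1 against 37.5 FPKM, or 22.4 against 26.1 FPKM without that row. Tfap2c was at 16.5 against 21.2 FPKM and Ascl2 at 1.76 against 2.93 FPKM, and Cdx2 at 0.189 FPKM in the KD and listed at 0 in the control.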

How the data were processed

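Total RNA of 4 TBV2 libraries was sequenced, 1 NT control and 3 KD clones. The submitters' processing notes name TopHat, Cufflinks and Cuffdiff and the build mm9; not given in the sources used here are their versions and options, the annotation, the read depth and how clones were combined. Each row of the deposited table has an FPKM for "treated" and an FPKM for "control", per the file headers; the first was read as the 3 KD clones pooled and the second as the NT library. The p-value and q-value of each row are those of the authors' deposited table. With 1 control library they hold no measured spread between control cultures, and nothing says that the clones came from separate experiments.

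Ratios and log2((KD FPKM + 1)/(control FPKM + 1)) were computed with Python 3.11.15, numpy 2.4.6 and pandas 2.3.3. No test was run, as each condition has 1 value. Lists were described by the authors' marks and by the median log2 fold of members at 1 FPKM or more in either condition. A count of tested members leaves out rows that the authors did not test. Of 226 list symbols 224 had a row. Named were the 7 genes, marked list members, direct partners, the most abundant unmarked members and the 2 nearest rows of each gene. Some genes that this rule names are not reported here. The members and lists were chosen with earlier results of these data known. Locus starts were raised by 1 to count from 1. Promoters came from RefSeq and exons from GENCODE M21, both on GRCm38, and no coordinates were converted. Calculations were tested on simulated data. Alternatives were other pseudocounts, low-value filters, row choice, centring, chromosomes left out and q thresholds.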

Additional observations from a re-analysis of the deposited data

How the results depend on the processing

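The median log2 fold of the 7 genes, 1.98, stayed above 0 under every alternative run. It was 2.65, 2.96 and 1.42 with pseudocounts of 0.1, 0.01 and 5 FPKM, 1.97 after centring on all rows, 2.40 over the 4 genes at 1 FPKM or more in both conditions and 1.96 without Srgn, the gene on chromosome 10. Summing rows left it as it was, since each symbol has 1 row. The 35 single-gene values under alternatives ranged from 0.35 (Stra6, pseudocount of 5 FPKM) to 3.30 (Srgn, pseudocount of 0.01 FPKM). None changed sign, but another pseudocount or the summing of 1 row cannot change a sign. The 7 genes were also chosen on this contrast. The kept signs of the median and of single genes are therefore no test, and only the sizes of the values are informative. With a pseudocount of 5 FPKM, Pth1r was at 1.42, Thbd at 0.92 and Plat at 0.73. The number of marked genes, 5, was 4 at a deposited q under 0.01 and 7 at a q under 0.1. It was 6 when the deposited p was adjusted by the Benjamini-Hochberg method only over tested rows at 1 FPKM or more in either condition. Thbd, Plat and Stra6 pass that filter only through their KD levels, so the count of 6 lends no support. Of 70 list medians under alternatives 3 changed sign. With all members kept whatever their level, the parathyroid hormone receptor list was at 0.010 and the macrophage and blood list at 0.0097. Without rows that carry several symbols, an alternative chosen after seeing the data, the trophoblast list was at -0.16, from 0.019, and the macrophage and blood list at -0.46, from -0.29. In all, 24 of the 70 moved by over 1.5 times, in 12 of 14 lists. With a pseudocount of 5 FPKM the medians were 0.92 for parietal endoderm, 0.72 for visceral endoderm, 0.31 for fibroblast, 0.23 for endothelial, -0.14 for macrophage and blood, 0.0065 for trophoblast, 0.12 for the SPARC and osteopontin families, 0.12 for proteoglycans and -0.0041 for the parathyroid hormone receptor list. With all members kept they were 0.48 for visceral endoderm, 0.41 for fibroblast, 0.13 for endothelial, 0.13 for trophoblast, 0.027 for the SPARC and osteopontin families, 0.099 for coagulation, 0.18 for osteopontin receptors and 0.26 for retinoid genes. With a pseudocount of 0.1 FPKM they were 0.54 for the SPARC and osteopontin families, 1.21 for fibroblast, 1.13 for endothelial and 0.034 for trophoblast.

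No paired analysis was possible because the deposited table holds 1 pooled value per condition. Leaving out single clones was not run for the same reason. Depth limits the low genes most. On a 2 kb transcript 3 fragments would be about 0.0515 FPKM in the control, against 0.166 FPKM for Stra6, and this covers counting error only.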

Other observations

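The order of the 7 genes depends on the scale. By ratio Srgn (9.87), Pth1r (9.70) and Stra6 (9.46) led, and Spp1 (4.92) and Sparc (3.88) came last. By absolute gain Spp1 (761.6 FPKM), Sparc (184.7 FPKM) and Srgn (53.1 FPKM) led, and Stra6 came last with 1.41 FPKM. Srgn was among the first 3 on both scales.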
